A study of Mus musculus with 8 samples.

Results

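Polycomb repressive complex 2 (PRC2) is described here through 10 genes, chosen by symbol and joined by gene identifier to the raw counts of each library. They are the catalytic subunits *Ezh2* and *Ezh1*, the core subunits *Eed* and *Suz12*, the histone-binding subunits *Rbbp4* and *Rbbp7*, and the accessory subunits *Jarid2*, *Aebp2*, *Mtf2* and *Phf19*. All 10 were present among the 27179 genes counted and all 10 passed the filter on low counts that left 16658 genes. RNA-seq was done on whole uteri of mice at postnatal day 10 (PD10), with 4 control and 4 *Ezh2* cKO libraries. Control mice were *Ezh2* f/f, with both *Ezh2* alleles floxed and no Cre, and cKO mice were *Ezh2* f/f; Acre, with the same floxed alleles and Cre expressed from *Amhr2*. *Amhr2*-Cre acts in cells derived from the mesenchyme, so a whole cKO uterus still holds epithelium, vessels and leukocytes in which deletion is not driven. Nothing in the labels ties the libraries to litters or days, and p-values measure the spread between these uteri.

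PRC2 places methyl groups on lysine 27 of histone H3, and the trimethylated form, H3K27me3, marks silenced developmental genes such as those of the Hox clusters. EZH2 or EZH1 carries the catalytic SET domain and is active only when bound to EED, which reads the mark, and SUZ12, which holds the complex together. EZH2 is typical of dividing cells, whereas EZH1 is relatively abundant in tissues that have stopped dividing. PRC1, a separate Polycomb complex, reads H3K27me3 through its CBX subunits and modifies histone H2A.

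The cKO allele removes exons 14 and 15 of *Ezh2*. In GENCODE vM21 (GRCm38), the main transcript *Ezh2*-201 lies on the minus strand of chromosome 6 and has 20 exons, and its coding exons 14 and 15 are at chr6:47541845-47541970 and chr6:47540677-47540855. The study's own exon numbering may differ from that of this transcript. Both exons are printed because their absence is what sets a recombined allele apart, and each is given 5′ to 3′ on the strand of the transcript, with no base capitalized.
Ezh2 exon 14: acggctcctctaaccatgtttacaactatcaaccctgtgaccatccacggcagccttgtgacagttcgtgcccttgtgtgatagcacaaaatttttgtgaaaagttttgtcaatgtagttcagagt
Ezh2 exon 15: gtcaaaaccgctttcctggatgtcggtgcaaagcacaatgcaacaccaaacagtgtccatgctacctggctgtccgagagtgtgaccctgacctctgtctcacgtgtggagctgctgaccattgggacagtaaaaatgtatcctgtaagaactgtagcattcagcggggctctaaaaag
Exon 14 has 126 bases and exon 15 has 179 bases, together 305 bases or 10.9% of the 2787-base transcript. The sum leaves a remainder of 2 when divided by 3, so joining exon 13 to exon 16 shifts the reading frame. The next sequence is the joined transcript as computed from the annotation, with 30 bases of exon 13 followed by exon 16. The capitals mark the first in-frame stop, which begins 20 bases past the junction.
Ezh2 exon 13 to exon 16: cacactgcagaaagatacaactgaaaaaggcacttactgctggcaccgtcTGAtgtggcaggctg
With this stop the open reading frame has 517 codons, against 746 codons in the full transcript. The deposited values are counts per gene over all exons, so a transcript that lacks both exons still adds counts to *Ezh2*, and reads across this junction were not analysed here.

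*Ezh2* did not separate the genotypes at the level of the whole gene. The 4 control uteri had 49.5, 40.5, 54.7 and 35.4 CPM of *Ezh2* (counts relative to the TMM-normalized library total), and the 4 cKO uteri had 30.4, 38.0, 40.7 and 38.0 CPM. The groups overlapped, since control 4 was below 3 of the 4 cKO libraries, while control 1 and control 3 were above every cKO library. The mean was 45.0 ± 8.70 CPM (SD, n = 4) in controls and 36.8 ± 4.41 CPM (n = 4) in cKO uteri. The log2 fold change of cKO against control was -0.29 with an SE of 0.13 and a 95% interval from -0.58 to 0.01, and the adjusted p of edgeR's quasi-likelihood test was 0.247. On the linear scale this interval runs from 66.8% to 100.5% of the control level, and so holds an equal level as well as a loss down to its lower end. By DESeq2 the adjusted p was 0.184. In bulk tissue, fewer cells of a type and less RNA per cell cannot be told apart. *Amhr2*, the gene from which Cre is expressed and a marker of the stroma, was read from the same libraries as a second look at the labels. It had 5.41 to 6.81 CPM in controls and 3.15 to 4.28 CPM in cKO uteri, with no overlap and a log2 fold change of -0.73 (SE 0.15, edgeR adjusted p = 0.0148). Only the cKO mice carried Cre expressed from *Amhr2*, and the part of the Cre allele itself in this difference was not tested.

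None of the 10 PRC2 genes was called at an adjusted p under 0.05, where 5.34% of all genes tested were called, 2.62% higher and 2.71% lower. None had an unadjusted p under 0.05 in the edgeR or limma-voom test, and DESeq2 gave 1, *Ezh2* at an unadjusted p of 0.0335. The edgeR test also gave 1 without robust estimation, with the replicate block, and without control 2, control 4 or cKO 3. The share over all genes was 21.2% in the edgeR test. No member had genotypes that did not overlap, against 12.3% of all genes. Of the members, 3 had a higher and 7 a lower mean fitted level in cKO uteri, and their median log2 fold change was -0.06, beside 0.0004 over all genes tested. The intervals of the 9 genes other than *Ezh2* together span 0.819-fold to 1.15-fold of control, so a halving or doubling of any of them lies outside its interval.

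**Figure D1:**
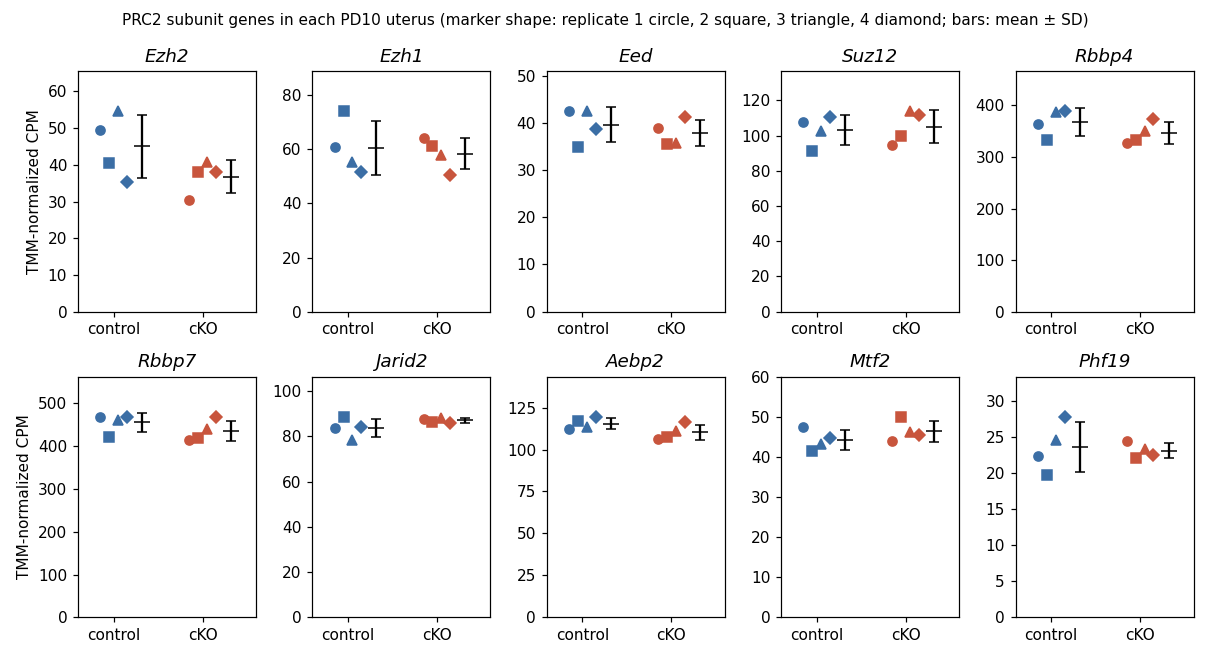
TMM-normalized CPM of the 10 PRC2 genes in each PD10 uterus, with controls in blue, cKO in red, marker shapes for the replicate numbers and bars for mean ± SD (n = 4). Control and cKO points overlap in all 10 panels, and the controls of *Ezh2* range from 35.4 to 54.7 CPM.

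*Ezh1*, the other catalytic subunit, was read next, because it can methylate the same residue. Control uteri had 60.8, 74.2, 55.3 and 51.6 CPM of *Ezh1* and cKO uteri had 64.2, 61.1, 57.9 and 50.6 CPM. The highest value belonged to control 2 and the lowest to cKO 4, and the genotypes overlapped between 51.6 and 64.2 CPM. Controls averaged 60.5 ± 9.91 CPM (SD, n = 4) and cKO uteri averaged 58.5 ± 5.83 CPM (SD, n = 4), which gave a log2 fold change of -0.05 (95% interval -0.29 to 0.19, edgeR adjusted p = 0.838). A rise of *Ezh1* in the whole uterus by more than 0.19 on the log2 scale lies outside this interval.

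The ratio of *Ezh1* to *Ezh2* counts within a library needs no scaling between libraries. It was 1.23, 1.83, 1.01 and 1.46 in controls and 2.11, 1.61, 1.42 and 1.33 in cKO uteri. The highest ratio was that of cKO 1, which had the lowest *Ezh2*, and control 2 was above the other 3 cKO libraries. As mean and SD over 4 libraries, the log2 ratio was 0.43 ± 0.37 for controls and 0.67 ± 0.29 for cKO, a difference of 0.24. The exact two-sided permutation test over the 70 arrangements gave p = 0.343, where 0.0286 is the smallest p this design allows. The difference was 0.10 without control 3, 0.10 without cKO 1 and 0.38 without control 2.

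**Figure D2:**
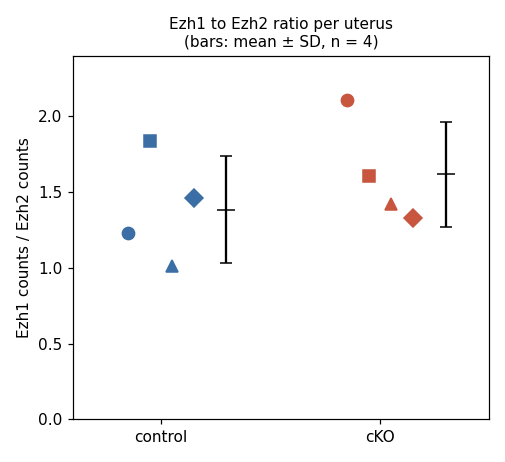
Ratio of *Ezh1* counts to *Ezh2* counts in each uterus, with controls in blue, cKO in red, marker shapes for the replicate numbers and bars for mean ± SD (n = 4). The control ratios run from 1.01 to 1.83 and the cKO ratios from 1.33 to 2.11, with overlap.

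The core subunits *Eed* and *Suz12* were at similar levels in both genotypes. *Eed*, which binds H3K27me3 and stimulates the enzyme, had 34.8 to 42.6 CPM in controls and 35.5 to 41.3 CPM in cKO uteri, with a log2 fold change of -0.07 (95% interval -0.24 to 0.11). *Suz12*, the scaffold, had 91.2 to 110.7 CPM in controls and 94.5 to 114.0 CPM in cKO uteri, with a log2 fold change of 0.03 (95% interval -0.14 to 0.19). The adjusted p-values of the edgeR test were 0.677 and 0.866.

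*Rbbp4* and *Rbbp7* encode WD-repeat histone chaperones that PRC2 shares with other chromatin complexes, and neither was called. *Rbbp4* had 363, 333, 388 and 389 CPM in controls and 326, 333, 349 and 375 CPM in cKO uteri. Its values overlapped, with cKO 4 above 2 of the 4 controls, and its log2 fold change was -0.09 (95% interval -0.24 to 0.05, edgeR adjusted p = 0.464). *Rbbp7* had 468, 422, 461 and 468 CPM in controls and 413, 419, 440 and 467 CPM in cKO uteri. Control 2 stood below the other 3 controls and within the cKO range, and the log2 fold change was -0.07 (95% interval -0.20 to 0.07, edgeR adjusted p = 0.566).

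The accessory subunits mark the 2 variants of the complex, PRC2.2 with JARID2 and AEBP2, and PRC2.1 with a Polycomb-like protein such as MTF2 or PHF19. *Jarid2* had 78.6 to 88.7 CPM in controls and 86.1 to 88.2 CPM in cKO uteri, and *Aebp2* had 112 to 120 CPM in controls and 106 to 116 CPM in cKO uteri. Their log2 fold changes were 0.06 (95% interval -0.06 to 0.17) and -0.07 (95% interval -0.18 to 0.05). *Mtf2* had 41.6 to 47.4 CPM in controls and 43.9 to 50.1 CPM in cKO uteri, with a log2 fold change of 0.07 (95% interval -0.07 to 0.21). *Phf19* had 22.3, 19.7, 24.5 and 27.8 CPM in controls and 24.4, 22.1, 23.4 and 22.5 CPM in cKO uteri, with a log2 fold change of -0.03 (95% interval -0.24 to 0.18). Thus the genes of neither variant were called, and the edgeR adjusted p-values of these 4 genes lay between 0.498 and 0.878. The 4 cKO values of *Phf19* all fell inside the span of its controls.

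**Figure D3:**
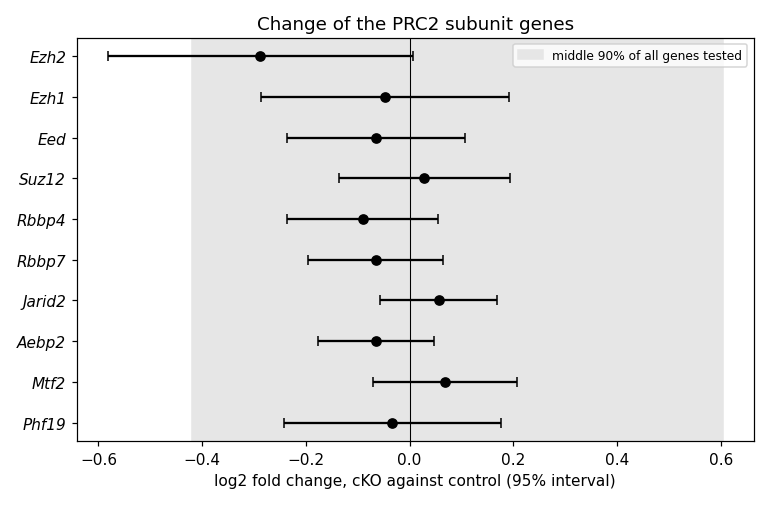
Log2 fold change of cKO against control for each PRC2 gene with its 95% interval from the edgeR fit, beside a grey band for the middle 90% of all 16658 genes tested. Every interval includes 0, and *Ezh2* lies farthest from 0 at -0.29.

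The members differed in how steady they were among control uteri. The coefficient of variation over the 4 controls was lowest for *Aebp2* at 2.88% and highest for *Ezh2* at 19.3%, followed by *Ezh1* at 16.4% and *Phf19* at 14.5%. In cKO uteri it was also highest for *Ezh2*, at 12%. These coefficients were not tested between genotypes.

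To compare levels between genes, the mean CPM over the 8 libraries was divided by the length of the longest annotated transcript. *Rbbp7* was highest at 198 CPM per kb, followed by *Rbbp4* at 76.6, *Suz12* at 23.8, *Aebp2* at 19.0 and *Eed* at 18.8 CPM per kb. Below them came *Ezh2* at 14.7, *Ezh1* at 14.1, *Mtf2* at 11.2, *Jarid2* at 10.2 and *Phf19* at 6.24 CPM per kb. By genotype, *Ezh2* and *Ezh1* were at 16.1 and 14.4 CPM per kb in controls and at 13.2 and 13.9 CPM per kb in cKO uteri, so the order of their means differed between the genotypes. The catalytic subunits were neighbours in the pooled order, and *Ezh2* was above *Ezh1* in 5 of the 8 libraries (exact sign-flip permutation test, p = 0.727, adjusted p = 0.727 over 9 neighbouring pairs). *Aebp2* and *Eed* were likewise not separated (exact sign-flip permutation test, p = 0.594, adjusted p = 0.668). The other 7 pairs had adjusted p-values of at most 0.0301 by the same exact test. The pairs were put in order by the same values, so these p-values are no independent support for the order. They also hold for this choice of length only. The order depends on the length used. With all annotated exons merged, *Ezh2* had 6.12 CPM per kb and moved from the sixth to the ninth place. *Jarid2*, at 8.80 CPM per kb, then stood above *Mtf2* at 7.96. With the principal transcript *Aebp2* had 30.3 CPM per kb, above *Suz12* at 23.8. *Jarid2* had 14.3 CPM per kb by that length, above *Mtf2* at 11.2. The order of *Mtf2* and *Jarid2* and that of *Suz12* and *Aebp2* thus turned with the length.

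Several members varied with a list of 20 proliferation genes, among them *Mki67*, the replication licensing factors *Mcm2* to *Mcm7* and the S-phase enzyme gene *Rrm2*. The summed CPM of that list was 1985, 1699, 2269 and 2521 in controls and 2014, 1923, 2121 and 2245 in cKO uteri, so the cKO values lay within the control span. Of its 20 genes, 0 were called by edgeR and 0 had an unadjusted p under 0.05, beside 5.34% and 21.2% of all genes tested. Over the 8 libraries, *Ezh1* was lower where the sum was higher, with a Pearson r of -0.93 (exact permutation p = 0.00161, adjusted p = 0.0161 over the 10 members) and a Spearman rho of -0.86 (exact permutation p = 0.0107, adjusted p = 0.0536). Without control 2 and control 4, which lie farthest from the median sum, r was -0.84, and within genotypes it was -0.99 in controls and -0.86 in cKO uteri.

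*Rbbp4* was higher where the proliferation sum was higher, with r = 0.82 (exact permutation p = 0.0112, adjusted p = 0.0375) and rho = 0.81 (exact permutation p = 0.0218, adjusted p = 0.0726). It had an r of 0.80 without the same pair of libraries, 0.97 within controls and 0.91 within cKO uteri. *Phf19* had r = 0.89 (exact permutation p = 0.0065, adjusted p = 0.0326) and rho = 0.90 (exact permutation p = 0.0046, adjusted p = 0.0456). However, its r was 0.44 without control 2 and control 4, 0.99 within controls and 0.0065 within cKO uteri, so that relation over the 8 libraries rests on those samples. *Ezh2*, in contrast, had an r of 0.0027 with the list (exact permutation p = 0.995, adjusted p = 0.995) and a rho of -0.10 (exact permutation p = 0.84, adjusted p = 0.84), and its r was 0.36 without control 2 and control 4. The smooth muscle list (6 genes, 0 called) was at 9096 CPM in control 2, the library with the lowest proliferation sum and the highest *Ezh1*, and at 7172 to 7895 CPM in the other 3 controls, with 7978 to 9099 CPM in cKO uteri. The stroma, endothelium and leukocyte sums were also highest among controls in control 2. The epithelium sum was 1150, 1075, 1302 and 1310 CPM in controls and 1333, 1237, 1429 and 1502 CPM in cKO uteri, in the same order as the proliferation sum within each genotype. The part of cell composition in these relations was not tested.

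**Figure D4:**
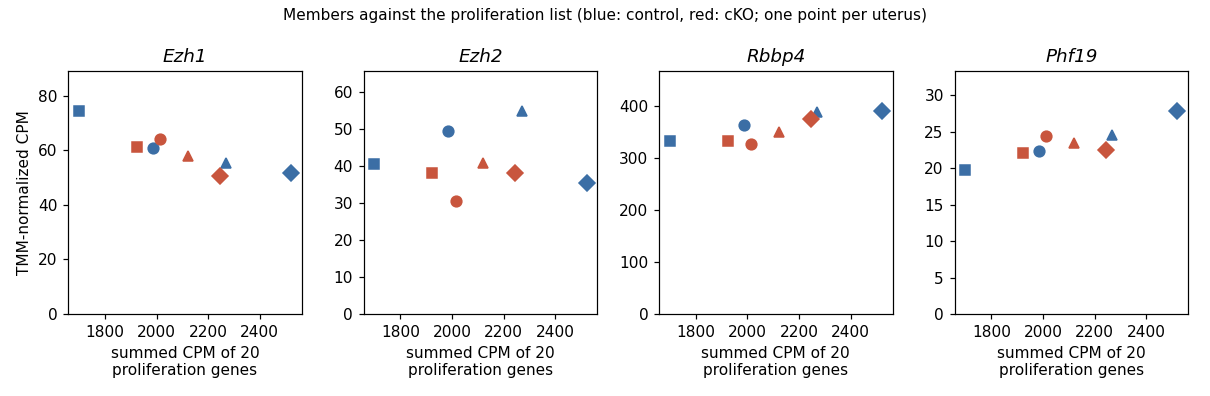
TMM-normalized CPM of *Ezh1*, *Ezh2*, *Rbbp4* and *Phf19* against the summed CPM of 20 proliferation genes, with one point per uterus, controls in blue, cKO in red and marker shapes for the replicate numbers. *Ezh1* goes down along the axis (r = -0.93, n = 8), *Rbbp4* goes up (r = 0.82) and *Ezh2* shows no slope (r = 0.0027).

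Because E2F factors, which drive genes of the cell cycle, are known to act on PRC2 genes, the promoters of the members were searched for the letters TTTGGCGC, TTTCCCGC, TTTCGCGC and TTTGCCGC on both strands. The windows came from RefSeq (GRCm38.p6) and run from 250 bases before to 50 bases after each start, and all 10 members matched at least 1 window. A match was found in 3 of the 10 members, and in 2.6% of all 27025 genes with a window. The stretches around the 3 matches are printed 5′ to 3′ on the strand of the gene, with the match in capitals, to show how they differ in place and orientation.
Ezh2: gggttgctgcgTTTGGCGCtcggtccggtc
Suz12: cgacccctcatTTTCCCGCgaattcagttc
Phf19: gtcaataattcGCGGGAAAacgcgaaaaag
The *Ezh2* stretch is at chr6:47595009-47595038 on the minus strand, and its match begins 3 bases past the start. The *Suz12* stretch is at chr11:79992876-79992905 on the plus strand, with the match at position -219 from the start. The *Phf19* stretch is at chr2:34914166-34914195 on the minus strand, with the match at position -208 from the start and in the reverse direction. No window of *Ezh1* or *Rbbp4* held these letters. Only exact matches were counted, and the *Rbbp4* window holds a stretch that differs from TTTGGCGC in 1 letter. Against the proliferation list, *Ezh2*, *Suz12* and *Phf19*, each with a match, had an r of 0.0027, 0.72 (exact permutation p = 0.0442, adjusted p = 0.102) and 0.89, and *Ezh1* and *Rbbp4*, without one, had an r of -0.93 and 0.82.

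The 10 genes whose log2 CPM went most closely with *Ezh2* over the 8 libraries were *Rnf13*, *Pkig*, *Eif3m*, *Bmt2*, *Aimp1*, *Ei24*, *Arxes1*, *Tango6*, *Mff* and *2610528J11Rik*. They were picked for their Pearson r, which ran from 0.90 to 0.97 and from 0.85 to 0.97 after each genotype was centred, and their rho ran from 0.67 to 0.88. No proliferation gene and no PRC2 member was among them, and 0 of the 10 were called between the genotypes, where 5.34% of all genes tested were called.

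Other genes of the pathway were taken from lists of textbook members that were written with earlier results of these data known, so their counts are a description and not independent evidence. Among 4 tested genes for further PRC2 partners (*Phf1*, *Epop*, *Lcor* and *Lcorl*), 0 were called by edgeR, 1 was called by DESeq2, which called 1510 of all 16658 genes, and 1 had an unadjusted p under 0.05 in the edgeR test, where 21.2% of all genes had one. The gene with the unadjusted p under 0.05 was *Epop*, which encodes a PRC2 partner linked to elongin and is named after its values were seen. It had 2.43, 1.82, 2.32 and 2.80 CPM in controls and 3.30, 3.28, 3.97 and 3.29 CPM in cKO uteri. Its groups did not overlap, and its log2 fold change was 0.56 (SE 0.17, edgeR adjusted p = 0.0741). *Ezhip*, which encodes an inhibitor of PRC2, was under the filter with at most 2 counts per library. The genes for the H3K27 demethylases, *Kdm6a* and *Kdm6b*, had log2 fold changes of -0.07 and 0.05, with 0 of 2 called by edgeR, 0 at an unadjusted p under 0.05 and 0 by DESeq2.

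Of 12 PRC1 genes, 2 were called, both higher in cKO uteri, where 2.62% of all genes tested were called higher. *Bmi1*, which encodes a ring-finger subunit that activates the ubiquitin ligase of PRC1, had 67.0, 62.1, 64.3 and 65.9 CPM in controls and 103.7, 123.7, 121.5 and 119.1 CPM in cKO uteri. Every cKO library was above every control, and the log2 fold change was 0.85 (SE 0.06, edgeR adjusted p = 1.48e-05). The median log2 fold change of the 12 genes was 0.14. *Bmi1* was called under all 17 alternatives.

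To see genes on which the complex is known to act, a list of 24 textbook Polycomb targets was read in the same libraries. Of its 17 tested genes, 11 were called, 7 higher and 4 lower in cKO uteri, where 5.34% of all genes tested were called, 2.62% higher and 2.71% lower. The other 7 listed genes were under the filter and not tested. Not every control had more than 0.2 CPM of *Hoxd13* or *Cdkn2a*, and both passed the filter only with their cKO libraries. Their entry to the count thus followed from their rise, and the count is no independent support. *Hoxd13*, the most 5′ gene of the HoxD cluster, was listed at 0.126, 0.503, 0.392 and 0.192 CPM in controls and 2.56, 2.54, 3.54 and 2.24 CPM in cKO uteri. The genotypes were apart in every library, and the log2 fold change was 3.21 (SE 0.33, edgeR adjusted p = 0.000164). Among the other called genes that rose were *Hoxd12* (log2 fold change 1.46), *Cdkn2a* (1.30), a cell cycle inhibitor, *Hoxc9* (1.29), *Hoxc10* (1.26) and *Gata6* (0.73), a zinc-finger regulator. *Cdkn2a* stood below 1 CPM in all 8 libraries and lost its call under 12 of 16 alternatives, and *Hoxc9* and *Hoxd12* lost theirs under 8 and 4 of 16.

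The target genes that fell were *Hoxa10* (log2 fold change -0.62), *Hoxd11* (-0.54), *Hoxa11* (-0.49) and *Hoxd10* (-0.26). *Hoxd10* lost its call under 8 of 17 alternatives, and *Hoxd11*, *Hoxa11* and *Gata6* each lost theirs under 1 of 17, the fat score as a covariate (edgeR adjusted p = 0.109, 0.0722 and 0.163). That score, built from fat marker genes, nearly follows genotype in these libraries. *Hoxa10* and *Hoxa11* are Hox genes that the uterine stroma expresses, and they are also on the stroma list. *Hoxa10* had 300.2 to 342 CPM in controls and 179 to 221 CPM in cKO uteri, with no overlap. The median log2 fold change of the 17 genes was 0.57, and the 11 called genes included both directions.

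**Figure D5:**
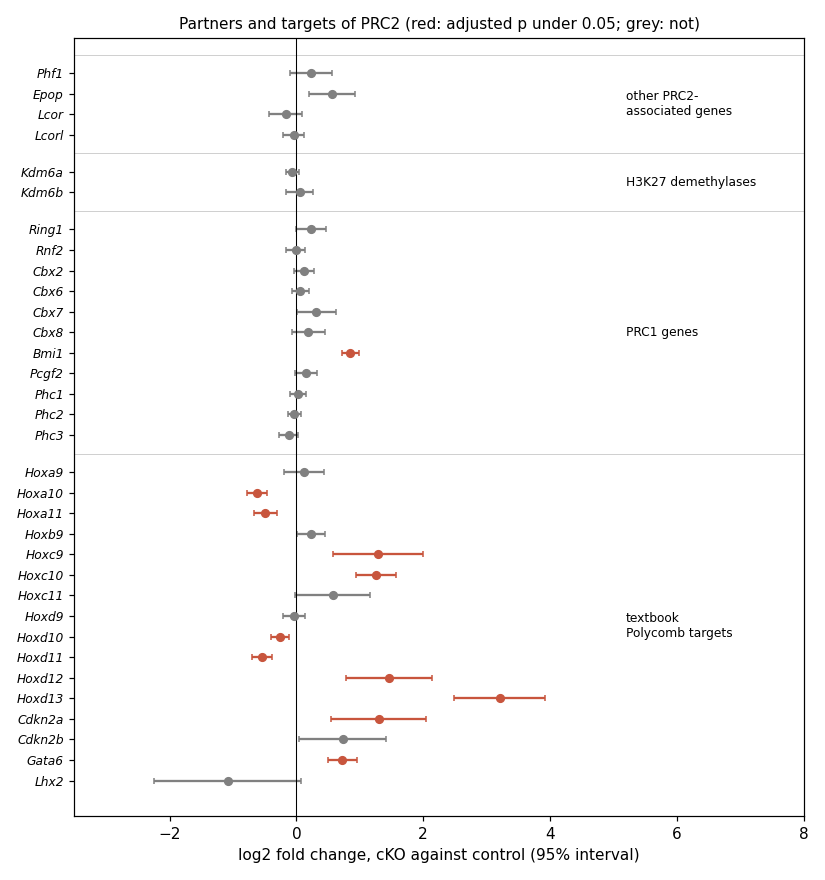
Log2 fold change of cKO against control with its 95% interval from the edgeR fit for genes of PRC2 partners, H3K27 demethylases, PRC1 and textbook Polycomb targets, with some genes of the lists not drawn. Red points, called at an adjusted p under 0.05, include *Bmi1* at 0.85, *Hoxd13* at 3.21 and *Hoxa10* at -0.62, and grey points were not called.

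Library totals and marker lists are given here for both genotypes, whether or not they differed. Library totals ranged from 26234429 to 36685807 counts in controls and from 25287141 to 32658315 counts in cKO uteri, and each PRC2 gene had between 510 and 17050 counts per library. For the counts that follow, 5.34% of all genes tested were called and 21.2% had an unadjusted p under 0.05 in the edgeR test. Epithelium markers (6 genes, 0 called, 3 with an unadjusted p under 0.05, all 6 with a higher fitted level in cKO uteri) summed to 1075 to 1310 CPM in controls and 1237 to 1502 CPM in cKO uteri. Of 8 stroma markers, 4 were called and 5 had an unadjusted p under 0.05. *Col3a1* was called higher and *Amhr2*, the gene from which Cre is expressed, *Hoxa10* and *Hoxa11* lower. The list summed to 8412 to 10891 CPM in controls and 9966 to 12700 CPM in cKO uteri. Fat markers summed to 1.95 to 4.06 CPM in controls, 4.03 CPM in cKO 4 and 86.1 to 204 CPM in the other 3 cKO libraries, with 1 of 6 tested genes called. All 6 had a higher fitted level in cKO uteri and an unadjusted p under 0.05 in the edgeR test. Their median log2 fold change was 5.77, and their edgeR adjusted p-values were at most 0.0897. With a fat score as a covariate *Ezh2* had a log2 fold change of -0.28 (edgeR adjusted p = 0.821). The calls went from 2 to 1 in the PRC1 list and from 11 to 3 in the target list, as they went from 889 to 113 over all genes. The score was -2.41 to -1.19 in controls, -1.97 in cKO 4 and 2.76 to 3.74 in the other 3 cKO libraries. It nearly follows genotype, so fat and genotype cannot be told apart by this fit. Lists of endothelium, leukocyte, skeletal muscle and ovary markers had 5, 6, 3 and 2 tested genes, of which 0 were called by edgeR. An unadjusted p under 0.05 in the edgeR test was found for 2, 1, 1 and 1 of them. In the skeletal muscle list, *Myog* and *Myod1*, which encode regulators of muscle formation, were under the filter and not tested. *Myog* had 0, 1, 1 and 0 counts in controls and 35, 21, 6 and 14 counts in cKO uteri. *Myod1* had 0 counts in every control and 7, 5, 4 and 4 counts in cKO uteri. Neither overlapped, where 12.3% of all genes tested had genotypes that did not overlap. Both were named after their values were seen. Of the 3 tested genes of this list, 1 had a higher and 2 a lower fitted level in cKO uteri. These 3 summed to 41.2 to 72.2 CPM in controls and 34.3 to 54.1 CPM in cKO uteri. All 6 smooth muscle markers had a higher fitted level in cKO uteri, 2 of them at an unadjusted p under 0.05 and 0 called. The part of these tissue measures in the calls was not tested further.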

How the data were processed

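Stranded TruSeq mRNA libraries were sequenced from the whole PD10 uterus, 4 from control and 4 from cKO mice. Per the submitters' processing notes, the authors used Trimmomatic, FastQC, HISAT2 with GRCm38, featureCounts and edgeR. For every library the authors deposited the raw counts by Entrez gene identifier. The strand setting, the annotation release and the treatment of reads with several hits are not given in the sources used here. Both tables of the whole series were not used for values. One of them holds the authors' fold changes and p-values, and only its gene symbols were read.

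The tools were edgeR 4.0.16 for the reported values, with DESeq2 1.42.0 and limma 3.58.1 as alternatives, under R 4.3.3. A gene was tested if its CPM was above 0.2 in 4 or more libraries. The fit was edgeR's quasi-likelihood F test with TMM normalization, robust estimation, a prior count of 0.125 for fold changes, and Benjamini-Hochberg adjustment over all genes tested. Called means an adjusted p under 0.05. DE genes are called genes with more than a 2-fold change, 1.3% of those tested. The SE is the size of the log2 fold change divided by the square root of F, and 95% intervals use the t distribution of that fit. Exact permutation tests are two-sided and were run in Python 3.11.15 with SciPy 1.17.1. The script was tested on simulated data.

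Members and lists were chosen with earlier results of these data known. The genes named are the 10 members, at most 10 called genes of each further list with the largest change first, genes with a defining role, and the 10 genes closest to *Ezh2* with a mean of at least 1 CPM, with log2(CPM + 0.1) as the scale. *Hoxd10*, *Epop*, *Myog* and *Myod1* fall outside that rule and were named after their values were seen. Alternatives were other normalizations, tools and filters, a replicate block, a fat score, and each library left out. A change of the length used for levels per kb was chosen after seeing the data. The chi-square per gene between 2 libraries was 7.45 to 30.0 over 28 pairs, so none was a repeat of another. A count of 0 allows up to 3 counts, or 0.0818 to 0.119 CPM, which covers counting error only. Exons of 6 members overlap annotated genes on the opposite strand, each of these by at most 9.1% of the member's exon length. *Rbbp4* overlaps 2 such genes (9.1% and 8.94%). Reads there cannot be assigned with certainty, and overlaps of other genes were not examined. No protein sequence was used here. Some genes of the lists are counted but not reported here by name.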

Additional observations from a re-analysis of the deposited data

Results flagged for a closer look

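Among the 4 controls, *Rbbp7* was at 422 CPM in control 2 and at 461 to 468 CPM in the other 3 libraries. The gap below the other controls made up 0.852 of the range of the group, above the 95% critical value of Dixon's test for 4 samples. It was 1 of 20 groups of values examined (10 genes in 2 genotypes), and chance alone gives about 1 in 20. Control 2 also had the lowest sum of the proliferation list, 1699 CPM.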

How the results depend on the processing

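No PRC2 gene was called under any of the 17 alternatives. *Ezh2* kept a negative log2 fold change in all 17, from -0.39 without control 4 to -0.18 without control 3, with an adjusted p of 0.0921 and 0.459. With the fat score as a covariate the log2 fold change turned to 0.072 for *Eed*, 0.034 for *Rbbp4*, 0.047 for *Rbbp7* and 0.0059 for *Aebp2*, and moved to -0.28 for *Ezh1* and 0.15 for *Suz12*, each uncalled before and after, and the cause was not tested. With each library left out in turn, the log2 fold change ran from -0.12 to 0.064 for *Ezh1* (highest without control 2), from -0.11 to 0.056 for *Phf19* (highest without control 4) and from -0.025 to 0.075 for *Suz12* (lowest without control 2), and none was called. DESeq2 called 1 further PRC2-associated gene. Among PRC1 genes 1 was called with the fat score and 1 to 5 with a library left out, 5 of them without cKO 4. Among Polycomb targets 3 were called with the fat score and 7 to 9 with a library left out. Over all genes, 889 were called, 1510 by DESeq2, 113 with the fat score, 1240 with the replicate block, and 409 (without control 1) to 1812 (without cKO 4) with a library left out, where control 3, cKO 1, cKO 2 and cKO 3 gave 585, 459, 487 and 540. The labels number the libraries 1 to 4 in both genotypes, but deviations of same-numbered libraries correlated at 0.07, 0.16, -0.04 and 0.26, so the numbers were not taken as pairs. With the replicate block *Ezh2* was at -0.28 (edgeR adjusted p = 0.21), and the sign-flip test of the *Ezh1* to *Ezh2* ratio gave an exact p of 0.5, where 0.125 is the smallest it allows. The reference table gives no exon length, so levels per kb used GENCODE lengths. The filter on low counts left 7 of the 24 targets untested and removed no PRC2 gene.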
